A study of Mus musculus with 20 samples.

Results

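Collagens are the chains from which the fibres and sheets of the extracellular matrix are built. They were followed here in 7 clonal fibroblast lines, as every probe set whose single gene symbol in the platform annotation is Col, a number, the letter a and a number. The rule took 82 probe sets of 42 genes, out of 45101 probe sets and 18193 genes in the whole table. The 42 genes comprise 11 fibrillar, 9 network-forming, 5 microfibrillar, 9 FACIT (fibril-associated), 4 transmembrane and 2 multiplexin chains, and 2 others (Col7a1 and Col26a1). The lines were cloned from mouse Swiss 3T3 cells, an immortalized line of embryonic fibroblasts. Swiss 2, Swiss 8 and Swiss 9 (3 arrays each) and Swiss 19 (2 arrays) are preadipose, that is, able to become fat cells. Swiss 3, Swiss 5 and Swiss 22 (3 arrays each) are non-adipogenic. No group carries an allele or an agent: all 20 samples are RNA of dividing cells in DMEM with bovine serum, in conditions that do not induce differentiation. Each line is 1 clone. The labels do not tell if the arrays of 1 line are different cultures, and a p-value taken over arrays therefore measures only the spread between them, which may be technical.

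A collagen molecule forms when α chains wind around each other in the endoplasmic reticulum, after prolyl and lysyl hydroxylation of the chains. Fibrillar chains then assemble into banded fibrils outside the cell. Network chains form sheets such as the basement membrane, type VI chains form beaded microfibrils, and FACIT chains sit on the surface of fibrils. In white fat, type VI collagen and basement membrane collagens surround each fat cell, while preadipocytes in culture lie in a fibrillar matrix of types I and III.

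The deposited values were linear probe set intensities on scales that differed between arrays. Scaled intensity below means an intensity multiplied so that each array has a mean of 500 after trimming 2% at each end. Tests used log2(intensity + 32) after quantile normalization, with the brightest probe set of each gene and 1 mean per line, so that 4 preadipose were set against 3 non-adipogenic line means. On that scale a fold change is understated for dim genes. The mean intensity of an array ran from 25.6 to 156.7. The hybridization spikes split the arrays into 11 dim ones (Swiss 2, Swiss 8, Swiss 9 and the arrays 1 and 2 of Swiss 3) and 9 bright ones (Swiss 19, Swiss 5, Swiss 22 and the third array of Swiss 3). Brightness and class therefore overlap, and only Swiss 19 was preadipose and bright.

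Of the 42 collagen genes, 23 were above background in all 7 lines, 13 in some lines and 6 in none. Background was the 95th percentile of the 27 bacterial control probe sets, 76.9 to 144.4 scaled intensity by line. Over all genes 56.3% were above it in every line, against 54.8% of the collagen genes. The 6 that were above it in no line were Col9a2 and Col9a3 (cartilage FACIT chains), Col24a1, Col10a1 (a chain of hypertrophic cartilage), Col17a1 (a hemidesmosome chain of epithelium) and Col26a1. Fibroblast markers fitted the label: 10 of 11 were above background in all lines, with sums of 210591 to 284975 in preadipose lines and 226975 to 252785 in non-adipogenic lines. Of 8 endothelial markers none was above background in every line. Their summed scaled intensities were 680.4 to 731 in preadipose lines and 624 to 909 in non-adipogenic lines. The sums were 978 to 1523 in preadipose lines and 1049 to 1607 in non-adipogenic lines for 8 epithelial genes. Pecam1, Tie1, Vwf and Cdh1 were above background in no line, Cdh5, Kdr, Krt5 and Ocln in 6 lines, and Epcam and Krt8 in all 7 lines. Of 8 chondrocyte markers 2 were above background in every line (Acan and Sox9). The sums of the list were 837 to 2074 in preadipose lines and 1282 to 1821 in non-adipogenic lines. The 4 osteoblast markers measured summed to 642 to 879 in preadipose lines and 455 to 1052 in non-adipogenic lines. The 7 macrophage markers summed to 2031 to 2557 in preadipose lines and 1861 to 2390 in non-adipogenic lines, with Ptprc and Itgam above background in no line, Fcgr1 in 6 lines, and Cd68, Adgre1, Csf1r and Cd14 in all 7 lines. The smooth muscle markers were brighter and are given with Swiss 19.

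**Figure D1:**
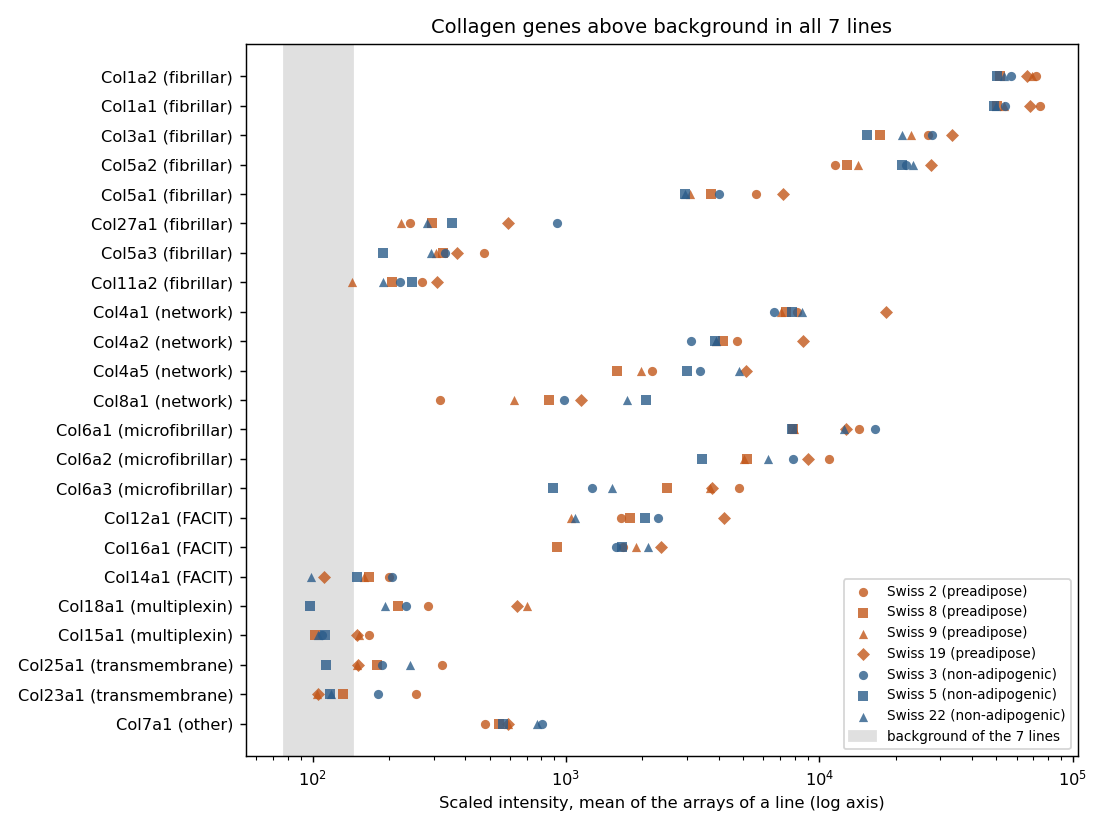
Scaled intensity (log axis) of the 23 collagen genes above background in all 7 lines, by family; each point is the mean of the arrays of a line, orange for preadipose and blue for non-adipogenic lines, and the grey band is the range of background over the lines. Positions of different genes are not comparable because each is another probe set; Col6a3 is the microfibrillar gene whose orange points all lie right of its blue points (lowest 2497, highest 1525).

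Between the classes, 1 collagen gene was called higher in the preadipose lines (Col6a3), against 0.583% of all genes (106), and 0 were called lower, against 0.951% (173). The calls are limma on the line means with a Benjamini-Hochberg adjusted p under 0.05 over all genes. At an unadjusted limma p under 0.05 there were 3 of the 42 (Col6a3, Col8a1 and Col18a1), against 2842 of all 18193 genes, which is a larger share. The median log2 difference, preadipose minus non-adipogenic, was 0.023 for the collagen genes and 0.0033 for all genes. Of the 42, 26 were positive and 16 negative. In 4 collagen genes every preadipose line exceeded every non-adipogenic line (Col6a3, Col18a1, Col5a3 and, below background throughout, Col10a1), which was so for 6.39% of all genes. In 0 collagen genes every preadipose line was lower on the brightest probe set, against 7.53% of all genes. As a group the 42 genes showed a median difference close to that of all genes, and Col6a3 had the largest single difference among them.

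**Figure D2:**
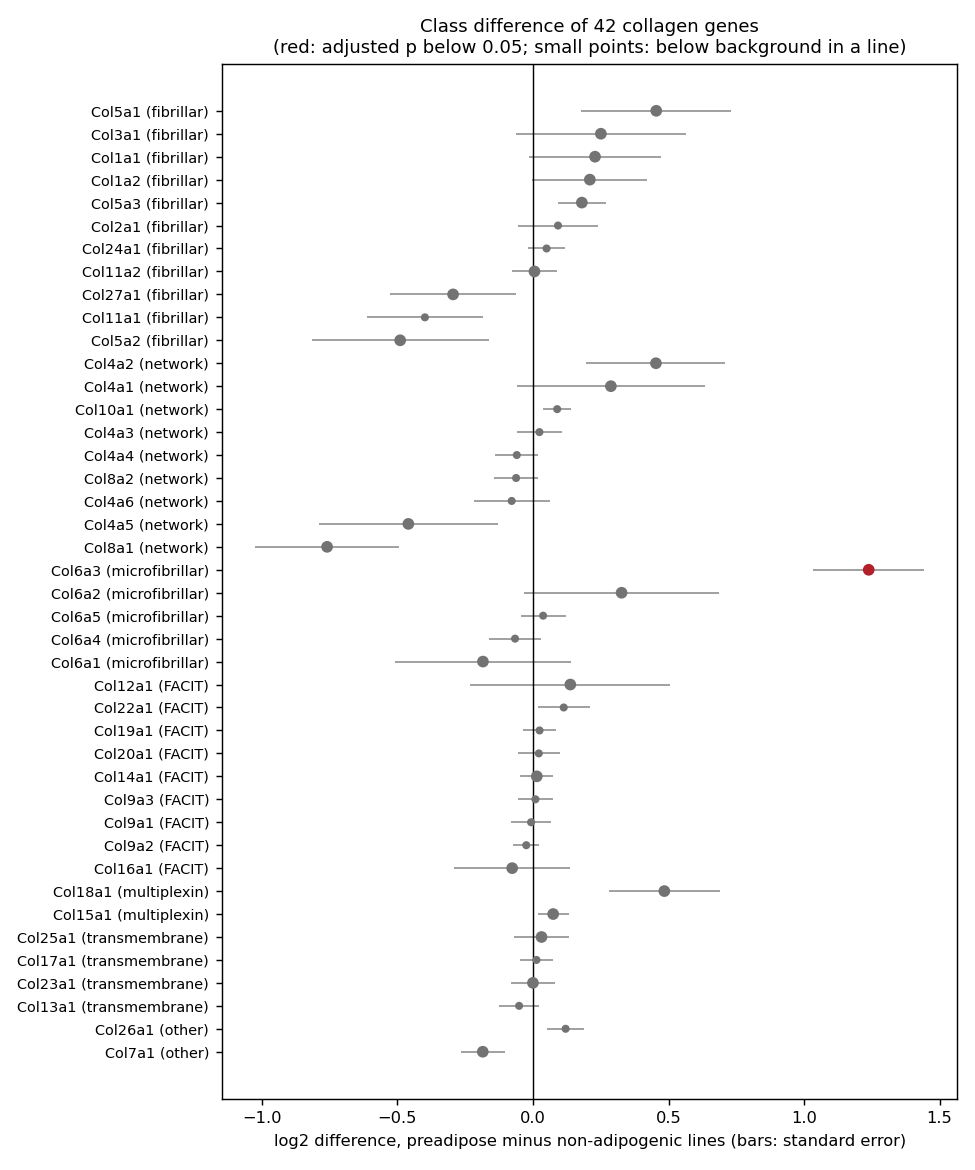
The log2 difference of preadipose minus non-adipogenic lines for all 42 collagen genes, by family, with its standard error; red marks an adjusted p below 0.05 and small points a gene below background in at least 1 line. Col6a3 lies at 1.24, and the other 41 between -0.76 and 0.48.

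Type VI collagen is a microfibrillar heterotrimer. Col6a1 and Col6a2 encode its short chains, and Col6a3 encodes the long chain whose C-terminal end is cleaved off as endotrophin. Col6a3 was measured at 4003, 5344 and 5127 scaled intensity on the Swiss 2 arrays, 2020, 2253 and 3219 on the Swiss 8 arrays, 3428, 3710 and 3948 on the Swiss 9 arrays, and 3848 and 3658 on the Swiss 19 arrays. It was measured at 1215, 1369 and 1226 on the Swiss 3 arrays, 1187, 698 and 785 on the Swiss 5 arrays, and 1456, 1639 and 1479 on the Swiss 22 arrays. Every preadipose array lay above every non-adipogenic array. The lines averaged 3692 ± 951 scaled intensity (SD, n = 4 lines) in the preadipose class and 1228 ± 319 (SD, n = 3 lines) in the non-adipogenic class, a ratio of 3.01. On the log2 scale this was 1.24 ± 0.204 (standard error), with an adjusted p of 0.0366 (limma). In these bulk samples, fewer cells of a type and less RNA per cell cannot be told apart.

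The Col6a3 call depended on the lines and on the scaling. With arrays centred on their medians the difference was 0.80 (limma adjusted p 0.910) and the classes overlapped, and without normalization it was 0.67 (adjusted p 0.883). Leaving out each line in turn gave differences of 1.07 to 1.41, and the adjusted p stayed under 0.05 only without Swiss 8 (0.0306). When any other line was left out, limma's adjusted p lay between 0.0557 (Swiss 19 omitted) and 0.103 (Swiss 5 omitted). It was 0.0709 with Swiss 2 omitted, 0.0853 with Swiss 9, 0.101 with Swiss 22 and 0.102 with Swiss 3. Without the third array of Swiss 8 it was 0.0628. Within the dim arrays the difference was 1.01 (adjusted p 0.220), with Swiss 3 as the only non-adipogenic line. Within the bright arrays it was 1.48 (adjusted p 0.280), with Swiss 19 as the only preadipose line. Swiss 3 itself had Col6a3 at 1226 on its bright array and a mean of 1292 on its dim arrays.

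The chains that pair with Col6a3 had overlapping classes. Col6a1 averaged 14288, 7864, 7956 and 12743 in the preadipose lines Swiss 2, 8, 9 and 19, and 16519, 7790 and 12553 in the non-adipogenic lines Swiss 3, 5 and 22. Col6a2 averaged 10929, 5162, 5033 and 9041 in the preadipose lines, and 7844, 3440 and 6259 in the non-adipogenic lines. Both genes were high in Swiss 2, Swiss 19 and Swiss 3 and low in Swiss 8, Swiss 9 and Swiss 5, so the classes overlapped. Their class differences were -0.18 (standard error 0.323) for Col6a1 and 0.33 (standard error 0.360) for Col6a2 on the log2 scale, and that of Col6a2 turned to -0.22 with arrays centred on medians. The log2 ratio of Col6a3 to the mean of Col6a1 and Col6a2 was higher by 1.17 in the preadipose lines, with a mean of -1.14 in the preadipose and -2.31 in the non-adipogenic lines. The lowest preadipose value (-1.45) exceeded the highest non-adipogenic value (-1.99). An exact two-sided permutation test over the 35 ways to assign 7 lines gave p = 0.0286, the smallest this design allows, for a ratio that was chosen after Col6a3 had been seen to differ. Over the 7 line means Pearson's r of Col6a1 with Col6a2 was 0.861 (rho 0.786), and 0.874 without the 2 lines farthest from the median. Col6a1 with Col6a3 gave 0.112, and 0.472 without such lines. Col6a2 with Col6a3 gave 0.588, and -0.10 without such lines. These correlations are descriptions, and lines that share a class, arrays and brightness are not independent points. Col6a4 (152.8 ± 68.4 scaled intensity in 4 preadipose lines, 166.2 ± 47.1 in 3 non-adipogenic lines, SD) and Col6a5 (above background in Swiss 2 alone) encode alternative long chains and were near background. A second, dimmer Col6a4 probe set, above background in 4 lines, was lower in every preadipose line (log2 difference -0.20). It averaged 23.1 to 95.2 in the preadipose and 111 to 162 in the non-adipogenic lines.

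The stretches before the starts of these genes are printed for the 3 chains of this trimer, for the network gene Col8a1, whose class difference has the opposite sign, and for the type I gene Col1a2. They come from RefSeq (GRCm38.p6), 5′ to 3′ on the gene's strand, and cover bases before the start that lie outside annotated genes. Capitals mark a match, on either strand, to the box CCAAT, to the GC box (written GGGCGG) or to the letters TATAA.
Col6a3, chr1:90844002-90844221, minus strand: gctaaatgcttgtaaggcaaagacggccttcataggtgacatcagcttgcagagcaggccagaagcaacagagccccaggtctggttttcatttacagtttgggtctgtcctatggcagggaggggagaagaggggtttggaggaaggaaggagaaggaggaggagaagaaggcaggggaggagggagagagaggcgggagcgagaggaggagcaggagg
Col6a1, chr10:76726045-76726294, minus strand: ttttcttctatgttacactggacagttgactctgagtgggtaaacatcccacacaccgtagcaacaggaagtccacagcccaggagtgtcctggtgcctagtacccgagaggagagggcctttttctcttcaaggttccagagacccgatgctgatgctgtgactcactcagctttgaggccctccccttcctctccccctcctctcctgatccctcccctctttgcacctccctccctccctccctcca
Col6a2, chr10:76623631-76623880, minus strand: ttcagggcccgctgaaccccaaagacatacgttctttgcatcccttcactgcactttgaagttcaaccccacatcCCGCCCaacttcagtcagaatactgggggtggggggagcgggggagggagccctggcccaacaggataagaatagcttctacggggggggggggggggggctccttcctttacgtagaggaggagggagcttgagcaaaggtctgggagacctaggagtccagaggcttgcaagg
Col8a1, chr16:57754738-57754987, minus strand: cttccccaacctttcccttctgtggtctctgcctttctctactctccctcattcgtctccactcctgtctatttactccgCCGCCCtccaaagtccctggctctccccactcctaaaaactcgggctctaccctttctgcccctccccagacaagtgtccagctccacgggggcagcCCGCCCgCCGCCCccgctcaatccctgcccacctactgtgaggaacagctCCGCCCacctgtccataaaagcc
Col1a2, chr6:4505368-4505617, plus strand: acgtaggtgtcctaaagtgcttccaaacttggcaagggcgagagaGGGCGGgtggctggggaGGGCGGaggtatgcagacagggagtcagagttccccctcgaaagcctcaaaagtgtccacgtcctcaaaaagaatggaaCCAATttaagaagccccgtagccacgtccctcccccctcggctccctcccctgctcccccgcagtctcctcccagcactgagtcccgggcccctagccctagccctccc
The Col6a3 and Col6a1 stretches hold none of these motifs, Col6a2 holds 1 GC box, and Col8a1 holds 4. Col1a2 holds 2 GC boxes and 1 CCAAT, which lies 109 bases before the start. A second annotated start of Col6a2 has a window (chr10:76623405-76623654) with 3 GC boxes, which is not printed. Windows of 250 bases were at hand for 33 of the 42 collagen genes, 3 of them (Col6a2, Col18a1 and Col9a1) with 2 windows each. In these, GGGCGG was found in 21 of 36 collagen windows (58.3%) and in 32.7% of 32851 windows of all genes. CCAAT was found in 36.1% of the collagen windows and 33.8% of all windows, and TATAA in 19.4% and 22.8%. A match describes the letters of a window and says nothing on binding. Col6a1 and Col6a2 are neighbours on chromosome 10, whereas Col6a3 lies on chromosome 1.

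**Figure D3:**
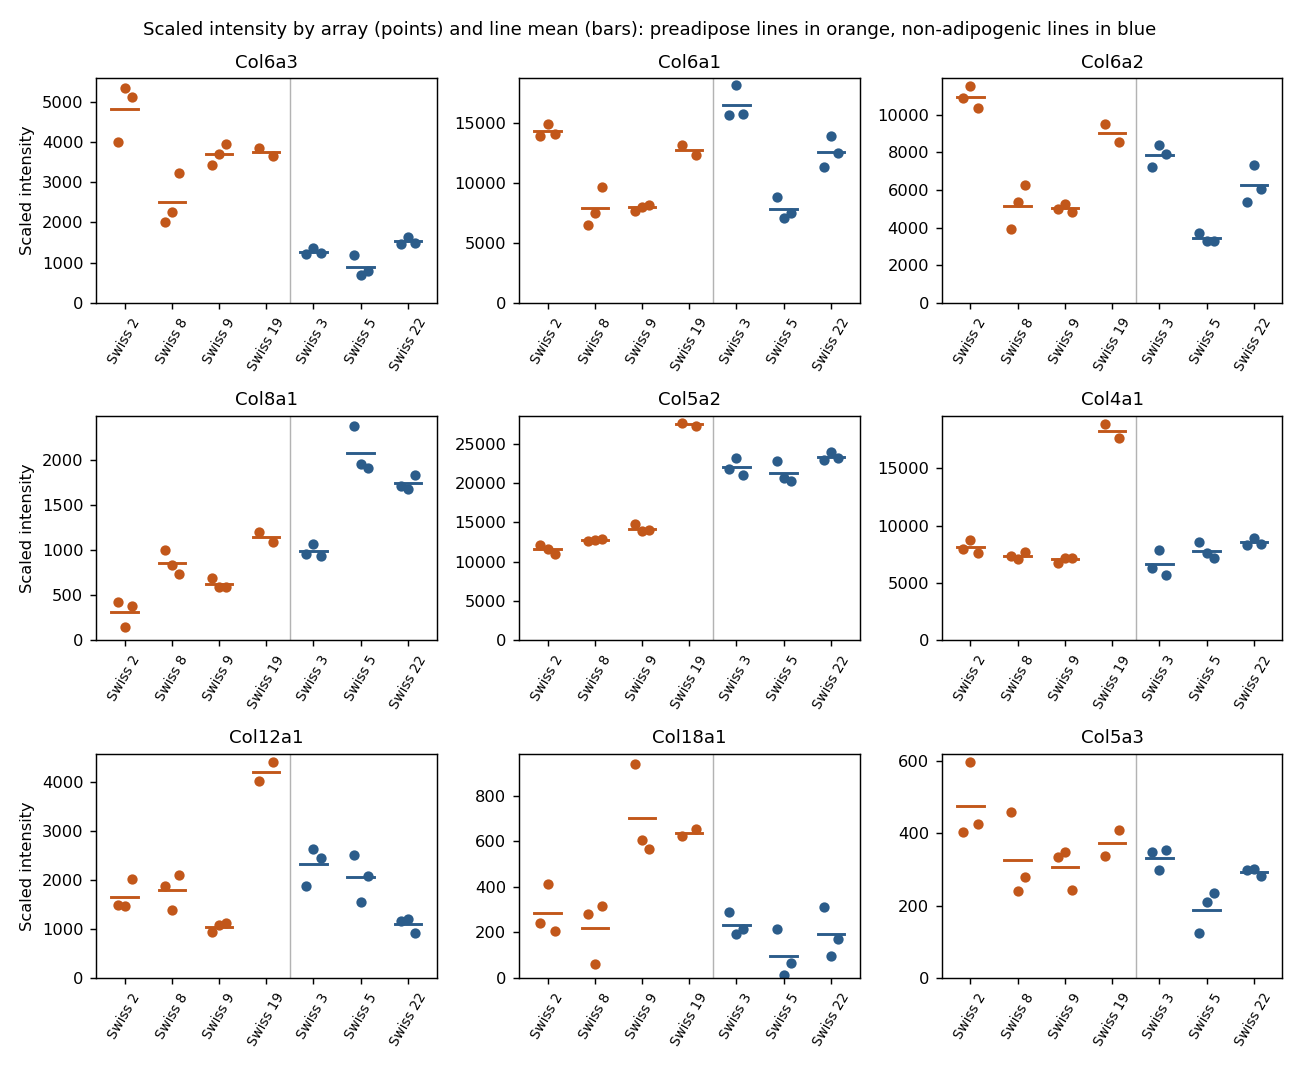
Scaled intensity of 9 collagen genes on each array (points) with the mean of each line (bars), preadipose lines left of the rule and non-adipogenic lines right of it. Col6a3 separates the classes on every array; Col5a2, Col4a1 and Col12a1 are highest on both Swiss 19 arrays, and Col8a1 is highest in Swiss 5 and Swiss 22.

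Among network chains, Col8a1 (a short chain of subendothelial and vascular matrix) had the largest negative class difference. It was measured at 422, 144 and 385 scaled intensity on the Swiss 2 arrays, 996, 837 and 737 on the Swiss 8 arrays, 687, 589 and 595 on the Swiss 9 arrays, and 1203 and 1092 on the Swiss 19 arrays. The non-adipogenic arrays gave 955, 1070 and 932 for Swiss 3, 2375, 1950 and 1908 for Swiss 5, and 1707, 1682 and 1833 for Swiss 22. Swiss 19 lay above Swiss 3, so the classes overlapped. The lines averaged 736 ± 352 in the preadipose class (SD, n = 4 lines) and 1601 ± 559 in the non-adipogenic class (SD, n = 3 lines). The log2 difference was -0.76 (standard error 0.265, limma adjusted p 0.223). It was smaller with brightness as a block (-0.40) and with the spike level as a covariate (-0.29). Within the dim arrays it was -0.38, with Swiss 3 as the only non-adipogenic line. Within the bright arrays it was -0.34, with Swiss 19 as the only preadipose line. With the arrays as units and line as a random block, an alternative limma fit, Col8a1 was called lower (-0.78, adjusted p 0.00334). That fit takes a correlation within lines shared by all genes, although the class varies only between lines. Its p may therefore understate the spread between the lines of a class for this gene. A second probe set of Col8a1 above background in all lines correlated with the first at 0.958 over the 7 lines, with the same sign of difference.

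The basement membrane chains Col4a1 and Col4a2, which form one heterotrimer, were highest in Swiss 19. Col4a1 averaged 8129, 7361, 7059 and 18294 in Swiss 2, 8, 9 and 19, and 6628, 7777 and 8536 in Swiss 3, 5 and 22. Col4a2 averaged 4738, 4172, 3908 and 8629 in the preadipose lines, and 3125, 3859 and 3893 in the non-adipogenic lines. Their log2 class differences were 0.29 and 0.45, with standard errors of 0.346 and 0.256, and neither passed the test. The scaled line means of Col4a2 did not overlap between the classes (lowest preadipose 3908, highest non-adipogenic 3893), whereas its normalized line means and both scales of Col4a1 overlapped. Both signs turned with arrays centred on their medians (-0.28 and -0.081). Relative to the median of all genes on that scale (-0.063) the differences were -0.21 and -0.018. Pearson's r between these chains was 0.954 over 7 lines but 0.482 without Swiss 19, so the relation rests largely on that line. The 2 genes lie head to head on opposite strands of chromosome 8, and their promoter windows of 300 bases share 78 bases. Col4a5, an X-linked chain of another type IV trimer, averaged 2178, 1597, 1971 and 5147 in the preadipose lines and 3391, 3016 and 4806 in the non-adipogenic lines. It was thus low in Swiss 2, 8 and 9 and high in Swiss 19 and Swiss 22. Its neighbour Col4a6 was above background in 6 lines, with its highest means in Swiss 22 (298) and Swiss 2 (257). Col4a3, Col4a4, Col8a2 and Col10a1 were at or near background, in 4, 1, 3 and 0 lines above it.

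The fibrillar chains Col1a1 and Col1a2, which form type I collagen, gave overlapping classes. Col1a1 averaged 74282, 50430, 53382 and 67836 in the preadipose lines, and 53970, 49041 and 49995 in the non-adipogenic lines. Col1a2 averaged 71749, 51689, 69138 and 65922 in the preadipose lines, and 56999, 50436 and 53492 in the non-adipogenic lines. The log2 differences were 0.23 (standard error 0.244) and 0.21 (standard error 0.212), with adjusted p of 0.762 and 0.746 by limma. Their line means correlated at 0.954, and at 0.782 without Swiss 19. A second probe set of Col1a1 above background in all lines had the opposite sign of class difference (-0.44) and correlated with the first at -0.12 over the lines, so the direction of Col1a1 is uncertain. Of 2 further Col1a2 probe sets above background in all lines, 1 had the opposite sign (-0.19) and 1 the same (0.45). The set of opposite sign was bright, with line means of 21938 to 40922 scaled intensity. The set of the same sign averaged 1564 in Swiss 19 but only 92.6 to 212 in the other lines. The direction of Col1a2 is therefore uncertain as well. Col3a1, the chain of type III fibrils, averaged 26936, 17375, 23045 and 33338 in the preadipose lines and 27797, 15451 and 21199 in the non-adipogenic lines. Its second probe set also had the opposite sign (-0.47). None of these genes passed the class test, and with arrays centred on their medians the differences of Col1a1, Col1a2 and Col3a1 turned to -0.37, -0.37 and -0.38.

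Type V collagen, which seeds fibrils, gave chains that disagreed with each other. Col5a1 averaged 5624, 3740, 3083 and 7192 in the preadipose lines and 4000, 2941 and 2936 in the non-adipogenic lines (log2 difference 0.45, adjusted p 0.516 by limma). Of 2 further Col5a1 probe sets, 1 had the same sign (0.20) and 1 the opposite (-0.040). With arrays centred on medians the Col5a1 difference was -0.054, close to the median of all genes there (-0.063). Col5a2 averaged 11558, 12798, 14224 and 27503 in the preadipose lines and 22015, 21254 and 23348 in the non-adipogenic lines (-0.49, adjusted p 0.566). Swiss 2, Swiss 8 and Swiss 9 were below all non-adipogenic lines and Swiss 19 above them. Without Swiss 19 the difference was -0.83 (standard error 0.066), and Col5a2 was called lower with a limma adjusted p of 0.00735, against 1.56% of all genes. In Swiss 3, Col5a2 was 20994 on the bright array and 22525 on average on the dim arrays. Both Col5a2 probe sets above background correlated at 0.973 over the lines. Col5a3, a chain with limited distribution, was measured at 402, 596 and 426 on the Swiss 2 arrays, 458, 241 and 280 on the Swiss 8 arrays, 334, 347 and 243 on the Swiss 9 arrays, and 336 and 408 on the Swiss 19 arrays. It gave 347, 297 and 353 on the Swiss 3 arrays, 123, 209 and 235 on the Swiss 5 arrays, and 298.3, 299.8 and 281 on the Swiss 22 arrays. After normalization its line means did not overlap, but the scaled line means and the arrays did (log2 difference 0.18, standard error 0.0873, adjusted p 0.387). Without normalization between arrays the difference was -0.081, where the median of all genes was -0.19. Relative to that median Col5a3 stayed positive (0.11).

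Of the other fibrillar chains, Col11a1 (a minor chain of cartilage fibrils) averaged 136, 200.2, 122 and 602 in the preadipose lines and 387, 390 and 639 in the non-adipogenic lines. Col27a1 averaged 243, 295, 224 and 592 in the preadipose lines and 919, 354 and 282 in the non-adipogenic lines, and was highest in Swiss 3. Col11a2 ran from 143 to 308 in the preadipose lines and 189 to 247 in the non-adipogenic lines. Col2a1, the main cartilage chain, was above background in 3 lines (highest in Swiss 9, 243).

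Among the FACIT chains, Col12a1, which decorates type I fibrils, had the widest range of line means. Col12a1 was measured at 1483, 1460 and 2016 on the Swiss 2 arrays, 1875, 1391 and 2092 on the Swiss 8 arrays, 934, 1082 and 1127 on the Swiss 9 arrays, and 4010 and 4397 on the Swiss 19 arrays. It gave 1882, 2619 and 2451 on the Swiss 3 arrays, 2513, 1557 and 2082 on the Swiss 5 arrays, and 1159, 1198 and 911 on the Swiss 22 arrays. Swiss 19 stood above every other line, and Swiss 9 and Swiss 22 were lowest (log2 difference 0.14, standard error 0.368, limma adjusted p 0.929). A second Col12a1 probe set above background in all lines had the opposite sign (-0.28). Col16a1 averaged 1674, 921, 1886 and 2377 in the preadipose lines and 1581, 1658 and 2113 in the non-adipogenic lines. Col18a1, whose C-terminal end is released as endostatin, was measured at 239.9, 414 and 205 on the Swiss 2 arrays, 279.96, 59.1 and 315 on the Swiss 8 arrays, 939.8, 605 and 567 on the Swiss 9 arrays, and 624 and 655 on the Swiss 19 arrays. It gave 290.3, 192 and 216 on the Swiss 3 arrays, 214, 12.6 and 64.6 on the Swiss 5 arrays, and 309.7, 95.3 and 173 on the Swiss 22 arrays. Its normalized line means did not overlap, but the scaled line means and the arrays did (log2 difference 0.48, standard error 0.205, adjusted p 0.311). On a second Col18a1 probe set, above background in 6 lines, the normalized line means overlapped as well (log2 difference 0.43). There Swiss 8 averaged 88.0 scaled intensity, below Swiss 3 (213) and Swiss 22 (207). Col15a1, the other multiplexin, had 102 to 168 in the preadipose lines and 105 to 112 in the non-adipogenic lines. The remaining FACIT chains Col9a1, Col14a1, Col19a1, Col20a1 and Col22a1, the transmembrane chains Col13a1, Col23a1 and Col25a1, and the anchoring fibril chain Col7a1 gave no call, either between classes or among the lines of a class. Col7a1 averaged 551 ± 53.6 in 4 preadipose lines and 711 ± 129 in 3 non-adipogenic lines (SD). Col25a1 ran from 149.6 to 324 in the preadipose lines and 113 to 243 in the non-adipogenic lines. Col23a1 ran from 104 to 255 in the preadipose lines and 117 to 182 in the non-adipogenic lines. Col14a1 ran from 111 to 201 in the preadipose lines and 98.9 to 207 in the non-adipogenic lines. Col9a1 and Col22a1 were above background in 6 lines each, Col20a1 in 4, Col13a1 in 2 and Col19a1 in 1.

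Differences among lines of a class were common. Among the preadipose lines, 17 collagen genes passed limma's F test on arrays, against 23.2% of all genes. Among the non-adipogenic lines, 11 passed, against 16.4%. Brighter genes pass more easily. Among the 23 collagen genes above background in all lines, 15 (65.2%) passed in the preadipose lines, where 36.8% of all such genes did. In the non-adipogenic lines 10 (43.5%) passed, against 27.0%. By family, 7 of 11 fibrillar, 4 of 9 network, 3 of 5 microfibrillar, 2 of 9 FACIT and 1 of 2 multiplexin genes passed in the preadipose lines. No transmembrane gene and neither of Col7a1 and Col26a1 did. Both Swiss 19 arrays gave the highest value of all 20 arrays in 10 collagen genes: Col1a1, Col1a2, Col3a1, Col5a1, Col5a2, Col4a1, Col4a2, Col4a5, Col12a1 and Col16a1. The same held for 3.00% of all genes, against 23.8% of the collagen genes. All 10 are among the 23 collagen genes above background in all lines, and among all such genes the share was 4.87%. With arrays scaled to a trimmed mean instead, it held for 8 genes, without Col1a1 and Col1a2 (for which Swiss 2 averaged highest on that scale). The shares were then 3.06% of all genes and 5.01% of those above background in all lines. With arrays centred on their medians it held for 13 collagen genes, 13.7% of all genes and 22.9% of those above background in all lines. These counts use the brightest probe set of a gene. On the second Col1a1 probe set Swiss 19 averaged 11206 scaled intensity, below Swiss 5 (16026), Swiss 3 (13355), Swiss 9 (12866) and Swiss 22 (11284). On the second Col3a1 probe set Swiss 3 (2041) exceeded Swiss 19 (1966). Further probe sets of Col1a2, Col4a1, Col4a5, Col5a1, Col5a2 and Col12a1 above background in all lines averaged highest in Swiss 19.

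The Swiss 19 arrays are bright and those of Swiss 2, 8 and 9 are dim. Between the bright array of Swiss 3 and the mean of its dim arrays, the log2 difference was -0.32 for Col4a1, -0.21 for Col4a2, -0.27 for Col4a5, -0.16 for Col3a1 and -0.14 for Col5a1. It was -0.11 for Col1a1, -0.044 for Col1a2, -0.073 for Col5a2, -0.10 for Col16a1 and 0.10 for Col12a1. The 10 genes were chosen because both Swiss 19 arrays exceed all others. That Swiss 19 averaged above the other lines, among them the also bright Swiss 5 and Swiss 22, therefore follows from the choice. The gap to Swiss 5 and Swiss 22 on the log2 scale was 1.27 for Col4a1, 1.25 for Col12a1, 1.21 for Col5a1, 1.14 for Col4a2 and 1.14 for Col3a1. The gap was 0.88 for Col1a1, 0.74 for Col1a2, 0.51 for Col5a2, 0.44 for Col4a5 and 0.28 for Col16a1. To the dim preadipose lines Swiss 2, 8 and 9 it was 1.34 for Col5a2, 1.24 for Col4a5 and 0.54 for Col16a1, in each case larger than to the bright lines. For the other 7 genes it was 1.40 (Col4a1), 1.25 (Col12a1), 1.004 (Col4a2), 0.93 (Col3a1), 0.90 (Col1a1), 0.81 (Col5a1) and 0.74 (Col1a2). Markers of contractile cells also differed in that line: the 7 smooth muscle markers summed to 87774 in Swiss 19, 31471 to 49625 in the other preadipose lines and 20139 to 43175 in the non-adipogenic lines. Acta2, at 72179, made up most of the Swiss 19 sum, and Tagln was 13699. Smtn was lowest there (293, against 379 to 533 in the other preadipose and 386 to 482 in the non-adipogenic lines), and Myh11 was above background in no line. The part of contractile genes in the Swiss 19 levels was not tested. The summed adipocyte markers (6 of 8 measured) were 1303 to 2485 in the preadipose lines and 1326 to 2505 in the non-adipogenic lines, with Swiss 19 the highest preadipose line. Fabp4 made up 1776 of that sum. Pparg was lowest of the preadipose lines in Swiss 19 (368), whereas Retn was 301 there, against 254 to 332 in the other preadipose lines. Adipoq was above background in Swiss 3 alone and Cidec and Lep in no line, so their order among the preadipose lines lies within background.

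**Figure D4:**
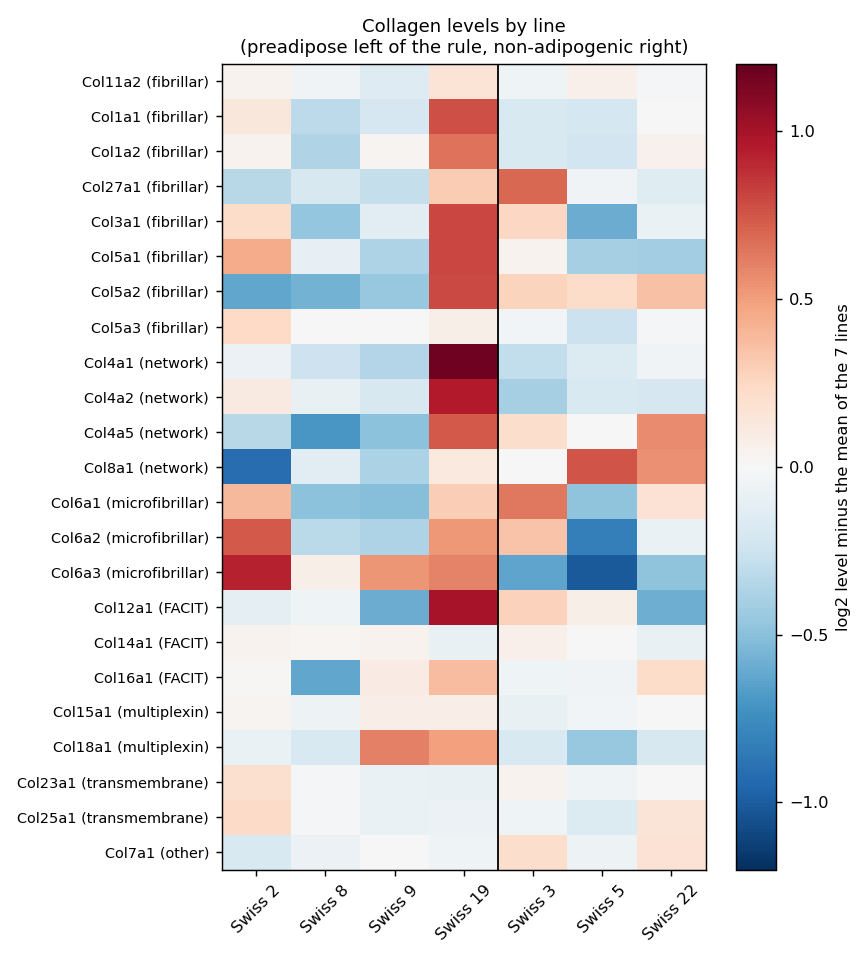
Log2 level of the 23 collagen genes above background in all lines, minus each gene's mean over the 7 lines (red above, blue below), with preadipose lines left of the rule. The Swiss 19 column is red in most fibrillar and network genes, with Col4a1 the highest, and Col6a3 is above its mean in all 4 preadipose lines and below it in all 3 non-adipogenic lines.

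**Figure D5:**
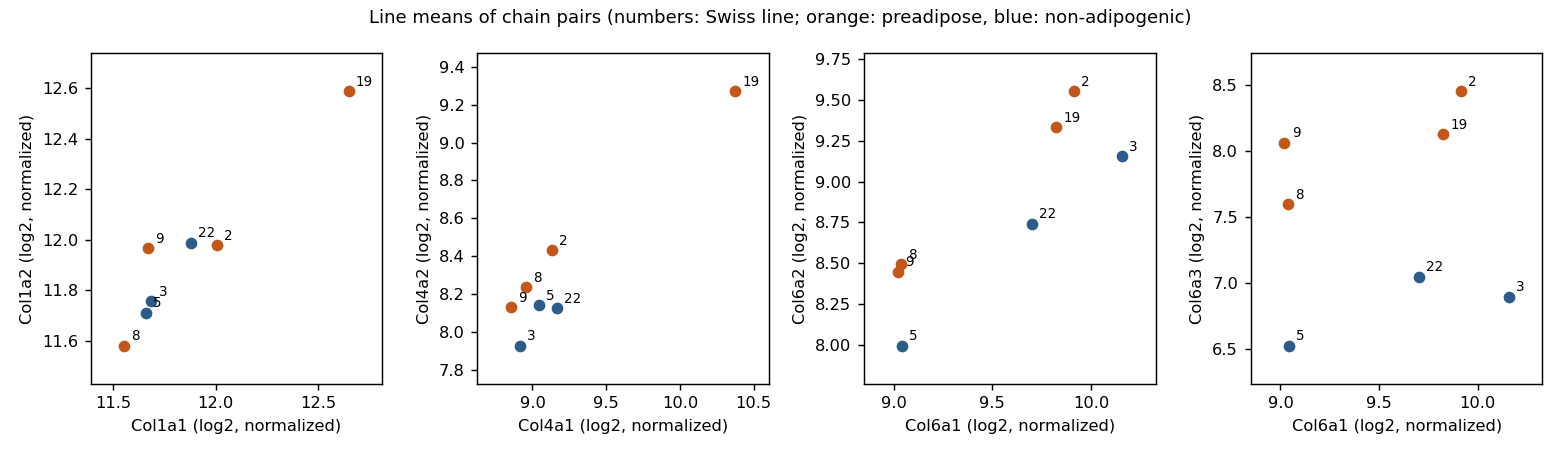
Line means on the normalized log2 scale for Col1a1 with Col1a2, Col4a1 with Col4a2, Col6a1 with Col6a2 and Col6a1 with Col6a3; each point is a line, labelled by its number. The first 3 pairs rise together (r = 0.954, 0.954 and 0.861, n = 7), whereas Col6a3 is higher in preadipose lines at similar levels of Col6a1 (r = 0.112).

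Genes that make, process and bind collagen were taken as whole lists. Of 25 measured genes of chain assembly and modification, none passed the class test in either direction, and 12 were positive and 13 negative (median -0.011). Creb3l1, a transcription factor that activates collagen genes, averaged 2221 ± 1118 in the preadipose lines (SD, n = 4, as below) and 1137 ± 242 in the non-adipogenic lines (SD, n = 3, as below; log2 difference 0.67, adjusted p 0.278 by limma). Ppib, a prolyl isomerase of procollagen, averaged 17529 ± 1608 in the preadipose lines and 22279 ± 520.3 in the non-adipogenic lines (-0.38, adjusted p 0.0552). In both genes the line means did not overlap. Creb3l1 averaged 3894 in Swiss 19 and 1562 to 1746 in the other preadipose lines. In the non-adipogenic lines it averaged 993 to 1416. Of 7 measured genes of procollagen processing outside the cell, none passed. Tll1, a protease of the same family as the procollagen C-proteinase, gave a log2 difference of -0.28 (adjusted p 0.169) and was near background in the preadipose lines. Of 9 measured collagen receptors, none passed, and 2 were positive and 7 negative. Mrc2, the endocytic collagen receptor Endo180, averaged 2135 ± 306 in the preadipose lines and 3041 ± 207 in the non-adipogenic lines (-0.42, adjusted p 0.0883 by limma). Of the fibroblast markers, 2 of 11 passed and were lower in the preadipose lines. They were Pdgfra, a receptor of platelet-derived growth factor (5251 ± 1456 in the preadipose and 26667 ± 3401 in the non-adipogenic lines, adjusted p 0.00505 by limma), and Lum, a fibril-binding proteoglycan (98.5 ± 48.8 in the preadipose and 867 ± 258 in the non-adipogenic lines, adjusted p 0.0109).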

How the data were processed

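RNA of 7 mouse lines (20 samples) was measured on a 3' expression array by in vitro transcription from oligo-dT primed RNA, per the labels' protocols. The deposited table gives linear intensity per probe set; how the authors summarized and scaled it is not given in the sources used here. Intensities were taken as log2(intensity + 32), quantile normalized over probe sets that are not controls, and reduced to the brightest probe set per symbol (18193 genes). Classes were compared by limma 3.58.1 (R 4.3.3) on 7 line means, lines within a class by limma's F on 20 arrays, p-values being adjusted over all 18193 genes by Benjamini-Hochberg (threshold 0.05). Single array values are given for collagen genes that passed between classes, for those whose line means did not overlap with at least 1 line above background, and for the 3 genes called within a class whose line means spanned most. From the other lists, up to 4 called members, or otherwise up to 2 with non-overlapping line means and the largest differences, are named. The members and lists were chosen with earlier results of these data known. All 82 probe sets matched the gene table by identifier; Col28a1 and Col6a6 were not analysed here. Same-numbered arrays of different lines did not deviate together (57 pairs, correlations of -0.051 to 0.071). No pairing of samples by number was thus seen, though so few arrays per line cannot exclude it. The number of lines limits the precision of the class test, and the number of arrays that of the tests within a class. The scripts were tested on simulated data.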

Additional observations from a re-analysis of the deposited data

Results flagged for a closer look

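In 4 of 36 collagen genes above background in a line, 1 of the 4 preadipose line means stood apart from the other 3 by Dixon's test, which chance flags in about 1 of 20 groups; among all 15169 such genes the share was 5.31%. Col5a2 spanned 1.41 on the log2 scale over the preadipose lines, with Swiss 19 high. Col25a1 spanned 0.30 with Swiss 2 high, Col20a1 spanned 0.25 with Swiss 2 low, and Col14a1 spanned 0.13 with Swiss 19 low. The last 3 are dim genes with small ranges, and only for Col5a2 did the array test call a difference among the preadipose lines.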

How the results depend on the processing

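The count of collagen genes called higher in the preadipose lines was 1, and 0 with the larger pseudocount, with arrays centred on medians, without normalization, within the dim arrays, within the bright arrays, with brightness as a block and Swiss 3 by its dim arrays (added after seeing the data), and with the spike level as a covariate. Leaving out 1 line or array gave 0 to 1 (0 without any 1 of Swiss 2, 9, 19, 3, 5 and 22, or the third Swiss 8 array). None was called lower, but 1 with line as a random block (Col8a1, -0.78) and 0 to 1 on leaving out a line (Col5a2, without Swiss 19). The count among preadipose lines was 17 and was 28 with arrays centred on medians and 30 without normalization; among non-adipogenic lines it was 11, and 25 and 29 under these settings. These settings also called 68.7% and 70.0% of all genes among preadipose lines, and 59.1% and 63.4% among non-adipogenic lines. Leaving out arrays gave 17 to 18 and 9 to 12. The cause was not tested. With the replicate number as a block, although no pairing by number was seen, the counts were 1 higher, 0 lower, 19 and 10, and Col6a3 was 1.25. Col6a3 was positive under all 42 alternatives, at 0.67 to 1.57. Col12a1 turned to -0.24 (medians), -0.37 (no normalization), -0.025 (mean of probe sets) and -0.43 (dim arrays), and ran from -0.17 to 0.36 without single lines. Col5a3 turned to -0.081 without normalization. Without normalization the median difference of all genes was -0.19. Relative to it Col6a3 was 0.87 higher and Col5a3 0.11 higher. The classes of Col6a3 overlapped with arrays centred on medians, and Col1a1, Col1a2, Col3a1, Col4a1, Col4a2, Col5a1 and Col6a2 had a negative sign there (-0.37, -0.37, -0.38, -0.28, -0.081, -0.054 and -0.22). The median of all genes was -0.063 on that scale. Relative to it Col5a1 was 0.0089 and Col4a2 -0.018, and the other 5 stayed negative. Depth of signal limits the 6 collagen genes that lay above background in no line.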
